A study of Mus musculus with 5 samples.

Results

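Natural killer (NK) receptor genes, the genes of their ligands and the genes of the major histocompatibility complex (MHC) were followed in sciatic nerves of Ebf2-/- and wild-type mouse pups. The set held the probe sets with a single annotated symbol that begins with Klra to Klrk, Raet1, H60, Ulbp or H2-, or that is B2m, Tap1, Tap2 or Tapbp. It had 17 of the 10361 probe sets in the table, each for a different gene: 6 receptors, 2 ligands of the receptor NKG2D, 7 H2 genes and 2 genes of peptide loading. RefSeq holds 76 protein-coding genes under these names, so most of the family, B2m and Tap2 among it, was not analysed here. Another 5 probe sets carried several symbols, at least 1 of them matched by the rule, and were left out of the counts.

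The nerves were taken at postnatal day 2 and pooled by genotype, 12 nerves to a pool and 1 array to a pool. There were 2 pools of Ebf2-/- nerves (KO pools 2 and 4) and 3 pools of Ebf2+/+ wild-type nerves (WT pools 1, 9 and 11), all on a C57Bl6N background, from crosses of heterozygous parents. Pups were genotyped on day 1. Which part of the gene is deleted, and how many animals or litters went into each pool, is not in the labels. The p-values thus weigh a difference only against variation between pools, part of which may be technical. The variance behind them came mostly from all probe sets together (17.4 prior degrees of freedom). A gene's own pools gave less of it (3 residual degrees of freedom). All values are log2 expression values from RMA. A log2 fold change is the KO mean minus the WT mean with its moderated standard error (SE) from limma, fitted over all probe sets, for 2 KO and 3 WT pools.

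Ebf2 itself, the check of the genotype labels, read 9.25 and 8.74 in KO pools 2 and 4, against 11.55, 11.13 and 11.40 in WT pools 1, 9 and 11. Of 12 Schwann cell genes 7 were measured, with mean levels of 11.56 and 11.12 in the KO pools and 11.78 to 11.92 in the WT pools. Genes of skin and muscle stood apart in WT pools 9 and 11. The 12 measured keratinocyte genes averaged 7.32 and 7.62 in the KO pools, against 7.27 in WT pool 1 and 9.30 and 8.62 in WT pools 9 and 11. The 19 skeletal muscle genes averaged 10.22 and 10.40 in the KO pools, against 9.74 in WT pool 1 and 11.21 and 11.00 in WT pools 9 and 11. For that reason many of the log2 fold changes are also given against WT pool 1 alone. In whole nerve, fewer cells of a type and less RNA per cell cannot be told apart.

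NK cells are lymphocytes that weigh activating against inhibiting signals from the cells they touch. Receptors encoded in the NK gene complex, named Klr, bind MHC class I molecules or lectin-like and stress-induced proteins. MHC class I molecules carry peptides that the TAP transporter brings into the endoplasmic reticulum, where tapasin helps to load them. Proteins of the Raet1 and H60 families resemble class I molecules, carry no peptide and bind the activating receptor NKG2D. Class II molecules present peptides to helper T cells, mainly on specialised immune cells.

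The sequences upstream of the start sites are shown for the 2 genes that passed the test, Raet1d and Klrb1a, for Klrb1c as a relative of Klrb1a that did not pass, and for H2-Q4, the H2 gene with the largest difference. They are from RefSeq on GRCm38.p6, cover the 250 bases before the start, and read 5′ to 3′ on the strand of the gene: chr10:22361644-22361893 (+) for Raet1d, chr6:128622935-128623184 (-) for Klrb1a, chr6:128788642-128788891 (-) for Klrb1c and chr17:35379367-35379616 (+) for H2-Q4. Capitals mark the CCAAT box on either strand.
Raet1d: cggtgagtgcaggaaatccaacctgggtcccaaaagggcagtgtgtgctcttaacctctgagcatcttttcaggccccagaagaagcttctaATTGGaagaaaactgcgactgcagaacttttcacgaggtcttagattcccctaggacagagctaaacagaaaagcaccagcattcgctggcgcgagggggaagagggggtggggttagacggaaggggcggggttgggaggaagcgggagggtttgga
Klrb1a: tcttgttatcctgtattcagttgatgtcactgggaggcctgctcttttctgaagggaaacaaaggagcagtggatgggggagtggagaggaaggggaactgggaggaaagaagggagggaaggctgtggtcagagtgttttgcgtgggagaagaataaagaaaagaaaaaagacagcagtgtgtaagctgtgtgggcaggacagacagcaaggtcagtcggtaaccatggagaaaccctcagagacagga
Klrb1c: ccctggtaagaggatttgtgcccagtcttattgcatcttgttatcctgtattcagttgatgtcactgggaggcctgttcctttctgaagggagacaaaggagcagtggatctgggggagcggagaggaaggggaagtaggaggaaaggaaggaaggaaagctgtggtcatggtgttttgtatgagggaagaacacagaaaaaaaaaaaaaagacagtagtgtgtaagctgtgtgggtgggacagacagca
H2-Q4: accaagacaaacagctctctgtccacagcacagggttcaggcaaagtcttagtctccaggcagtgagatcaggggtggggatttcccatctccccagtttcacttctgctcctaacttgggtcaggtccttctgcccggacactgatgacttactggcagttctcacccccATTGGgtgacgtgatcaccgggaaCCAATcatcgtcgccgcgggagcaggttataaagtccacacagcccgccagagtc

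The windows were searched on both strands for CCCNNGGG, the core that early B cell factors bind, and for CCAAT, and the motifs were allowed to overlap. Such windows were on hand for 15 of the 17 genes, all but H60b and H2-Ab1. CCCNNGGG lay in 2 of the 15, H2-M1 and H2-M10.2, and in 11.8% of the 32851 RefSeq windows. It lay in neither the Raet1d nor the Klrb1a window. CCAAT lay in 11 of the 15, against 33.8% of all windows, among them Raet1d and, with 2 copies, H2-Q4. The Klrb1a and Klrb1c windows were identical at 188 of 210 aligned bases (89.5%). The Raet1d window was identical at 245 of 248 aligned bases (98.8%) to the matching window of Raet1e, a neighbouring paralog that was not analysed here. That Raet1e window held 0 copies of CCCNNGGG, and another Raet1e window, chr10:22158319-22158568 (+), held 1. A motif match is a description of these letters, not a binding site.

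Of the 17 genes, Raet1d rose and Klrb1a fell, and the other 15 did not pass at adjusted p below 0.05. Of all probe sets 0.347% passed as higher and 0.328% as lower in KO. At unadjusted p below 0.05, 2 of the 17 were higher in KO, against 7.14% of all probe sets, and 1 was lower, against 7.17%. Both KO pools lay above all WT pools in 5 of the 17 genes, against 17.5% of all probe sets, and below all WT pools in 2, against 13.3%. The log2 fold change was positive in 11 of the 17, against 49.8% of all probe sets. Its median was 0.13 over the 17 genes and -0.002 over the table, and the median size of the change, regardless of sign, was 0.16 and 0.18. The 15 genes that did not pass differed at most 1.37-fold between the genotypes, with adjusted p from 0.240 to 0.946.

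**Figure D1:**
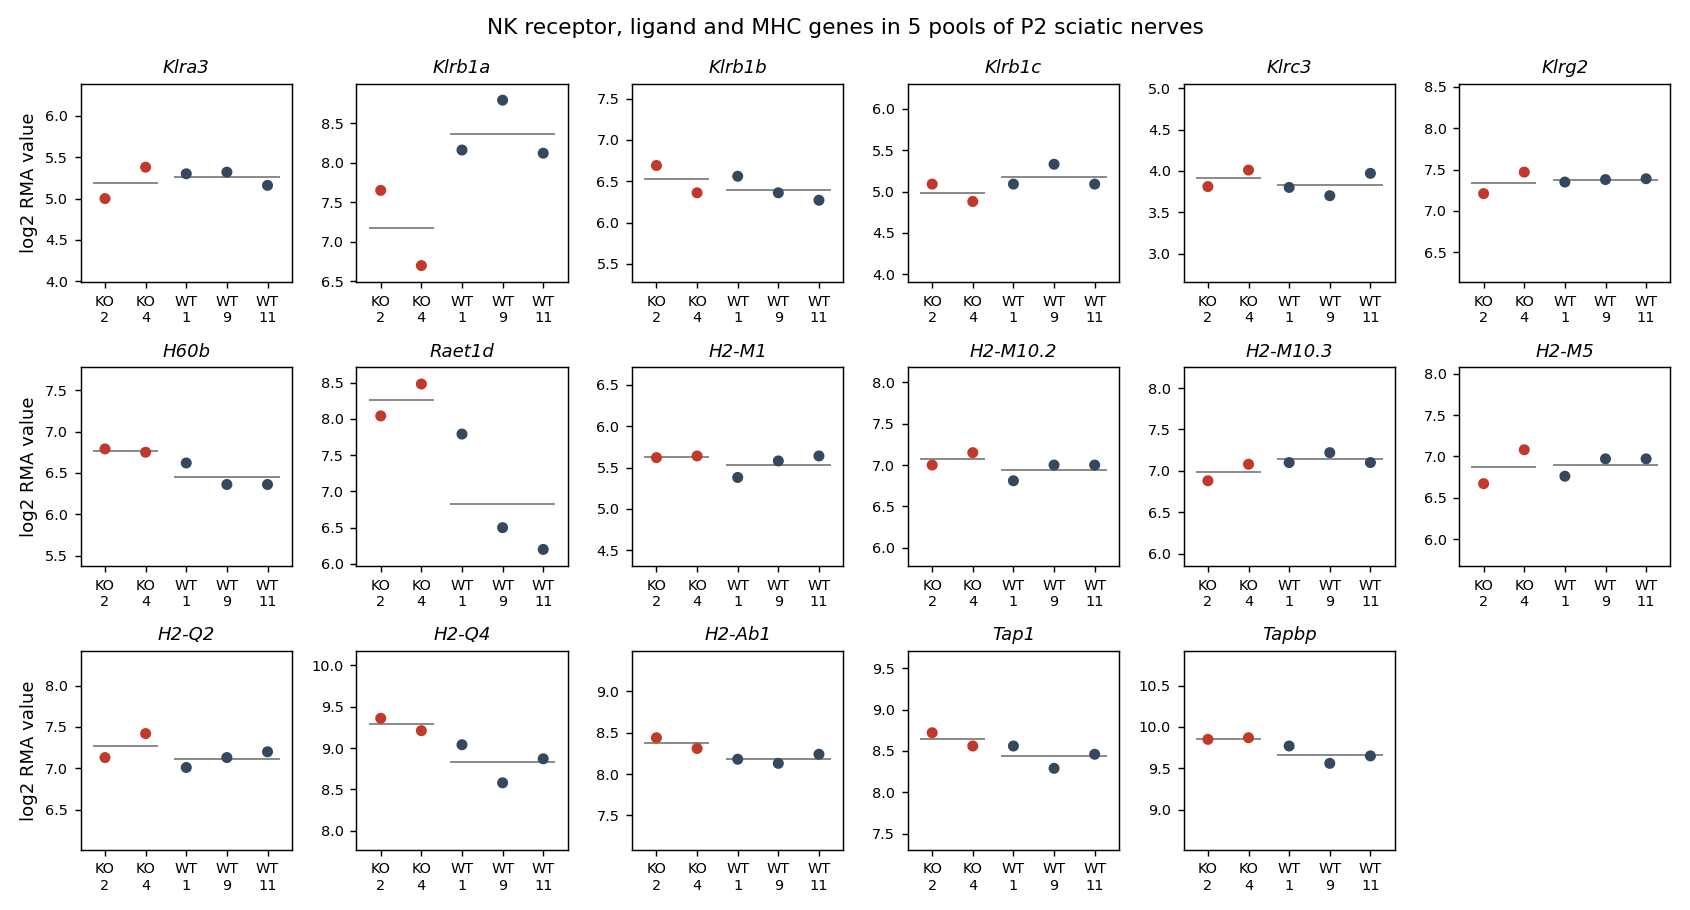
Log2 RMA values of the 17 genes in KO pools 2 and 4 (red) and WT pools 1, 9 and 11 (dark blue), with a grey line at the mean of each genotype. The vertical axes differ in position, and those of Klrb1a and Raet1d also in span. Klrb1a lies between 6.70 and 7.65 in KO and between 8.12 and 8.79 in WT, and Raet1d between 8.04 and 8.48 in KO and between 6.20 and 7.79 in WT, where WT pool 1 is nearest to the KO pools.

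Among the ligands, Raet1d, which encodes the NKG2D ligand RAE-1 delta, read 8.04 and 8.48 in KO pools 2 and 4, against 7.79, 6.50 and 6.20 in WT pools 1, 9 and 11. Both KO pools were above all WT pools, but WT pool 1 stood closer to the KO pools than to the other WT pools. Raet1d averaged 8.26 ± 0.31 (SD, n = 2) in KO and 6.83 ± 0.85 (SD, n = 3) in WT, a 2.70-fold higher level in KO (log2 fold change 1.43, SE 0.30, limma adjusted p = 0.0310). WT pool 1 exceeded the mean of WT pools 9 and 11 by 1.44 on the log2 scale, as much as the genotypes differed. Against WT pool 1 alone the log2 fold change was 0.47, and by construction the same with WT pools 9 and 11 as a block. It was 1.65 without KO pool 2 and 1.21 without KO pool 4. Each of these fits rests the comparison on 1 pool of a genotype, so whether the call holds cannot be read from them. The call was lost without WT pool 1 (log2 fold change 1.91, limma adjusted p = 0.0692) and without WT pool 9 (1.27, 0.831). Those fits called 6 and 1 probe sets of the whole table, against 70 with all pools, so most calls were lost there. The Raet1d call held without WT pool 11 (1.12, 0.00318). In that fit the prior degrees of freedom were infinite, so all probe sets shared a common variance.

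The skin and muscle genes that were high in WT pools 9 and 11 moved against Raet1d, which was low in those pools. The part of the nerve's other tissues in the Raet1d difference was not tested. The endothelial list, like Raet1d, was lowest in WT pools 9 and 11: the 9 measured genes averaged 10.92 and 10.69 in the KO pools, against 10.75 in WT pool 1 and 10.29 and 10.23 in WT pools 9 and 11. Signal from Raet1e cannot be told apart from that of Raet1d here, since the probe sequences were not analysed.

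H60b, another NKG2D ligand and the gene next to Raet1d in RefSeq, read 6.79 and 6.75 in KO pools 2 and 4, against 6.62, 6.36 and 6.36 in WT pools 1, 9 and 11. The groups did not overlap, and again WT pool 1 was the highest of the WT pools. The difference did not pass (log2 fold change 0.32, SE 0.17, limma adjusted p = 0.398), and it was 0.15 against WT pool 1 alone. Of the 8 protein-coding genes on either side of Raet1d, 7 of the 16 were measured, H60b included. Of these 7, 0 passed in limma or had unadjusted p below 0.05, and their log2 fold changes ran from -0.14 to 0.34. The largest was that of Tbpl1, a TATA-box-binding protein relative, at 9.94 and 10.20 in KO pools 2 and 4 against 9.86, 9.59 and 9.72 in WT pools 1, 9 and 11.

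**Figure D2:**
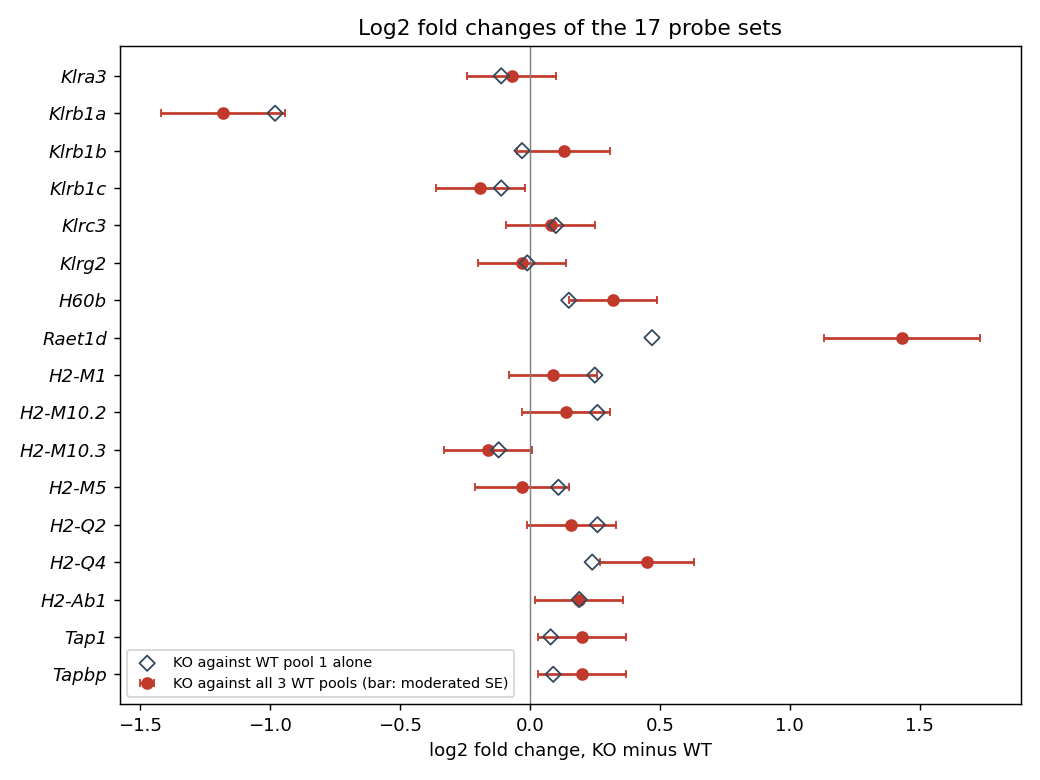
Log2 fold changes, KO minus WT, of the 17 genes on the horizontal axis, with filled points for KO against all 3 WT pools (bars: moderated SE) and open diamonds for KO against WT pool 1 alone. Klrb1a stays near its value against WT pool 1 alone (-0.98 beside -1.18), and Raet1d drops to 0.47 beside 1.43.

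Among the receptors, Klrb1a, a member of the NKR-P1 group of lectin-like receptors, read 7.65 and 6.70 in KO pools 2 and 4, against 8.16, 8.79 and 8.12 in WT pools 1, 9 and 11. Both KO pools were below all WT pools, and KO pool 4 was the lower of them by 0.95. Klrb1a averaged 7.18 ± 0.68 (SD, n = 2) in KO and 8.36 ± 0.37 (SD, n = 3) in WT, a 2.27-fold lower level in KO (log2 fold change -1.18, SE 0.24, limma adjusted p = 0.0234). Against WT pool 1 alone the log2 fold change was -0.98, and by construction the same with WT pools 9 and 11 as a block. It was -1.66 without KO pool 2 and -0.70 without KO pool 4. As for Raet1d, these fits rest on 1 pool of a genotype, and no call is read from them. The call was lost without WT pool 1 (log2 fold change -1.28, limma adjusted p = 0.204) and without WT pool 9 (-0.97, 0.831). Those fits called 6 and 1 probe sets of the whole table, against 70 with all pools. The Klrb1a call held without WT pool 11 (-1.30, 0.000151), the fit with infinite prior degrees of freedom and a variance common to all probe sets.

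KO pool 4 was also the lowest pool in other lists. The 7 measured Schwann cell genes averaged 11.56 and 11.12 in KO pools 2 and 4, against 11.78, 11.92 and 11.86 in WT pools 1, 9 and 11. Among them Egr2, a transcription factor of myelination, was called lower in KO (log2 fold change -1.13, SE 0.22, limma adjusted p = 0.0181). It read 10.72 and 9.75 in the KO pools, against 11.19, 11.53 and 11.39 in the WT pools. Mag was also called lower (log2 fold change -0.99, SE 0.19, limma adjusted p = 0.0166). It was low in both KO pools, at 10.72 and 10.52, against 11.38, 11.94 and 11.51 in the WT pools. Both KO pools lay below all WT pools in 5 of the 7 Schwann cell genes, against 13.3% of all probe sets. The 6 macrophage genes averaged 9.37 and 9.01 in the KO pools, against 9.34, 9.31 and 9.28 in the WT pools, and the 7 MHC transcription factors 9.65 and 9.07 in the KO pools, against 9.68, 9.56 and 9.45 in the WT pools. The part of these differences, or of KO pool 4 as a whole, in that of Klrb1a was not tested. Without KO pool 4 the Klrb1a difference was -0.70, as given above.

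The relatives of Klrb1a in the same gene cluster did not pass. Klrb1c, which encodes the NK1.1 antigen of C57BL/6 NK cells, read 5.09 and 4.88 in KO pools 2 and 4, against 5.09, 5.33 and 5.09 in WT pools 1, 9 and 11. Klrb1b, an inhibitory NKR-P1 receptor, read 6.69 and 6.36 in the KO pools, against 6.56, 6.36 and 6.27 in the WT pools. The groups overlapped or touched in both, and the log2 fold changes were -0.19 (SE 0.17, limma adjusted p = 0.630) for Klrb1c and 0.13 (SE 0.18, limma adjusted p = 0.722) for Klrb1b. They were -0.11 for Klrb1c and -0.03 for Klrb1b against WT pool 1 alone, where the sign of Klrb1b turned. A test of Klrb1a against its relatives was not made. Of the 8 protein-coding genes on either side of Klrb1a, 5 of the 16 were measured, with log2 fold changes from -0.19 to 0.53. In limma 0 passed, and 1 was higher at unadjusted p below 0.05, against 7.14% of all probe sets. That gene was Foxm1, the highest of the 5, a cell cycle factor, at 10.63 and 10.77 in KO pools 2 and 4 against 10.54, 9.86 and 10.12 in WT pools 1, 9 and 11.

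The other receptors varied little. Klra3, of the Ly49 group that binds class I molecules, read 5.0 and 5.38 in KO pools 2 and 4, against 5.30, 5.32 and 5.16 in WT pools 1, 9 and 11. Klrc3, of the NKG2 group, read 3.81 and 4.01 in the KO pools, against 3.80, 3.70 and 3.97 in the WT pools. Klrg2 read 7.21 and 7.47 in the KO pools, against 7.35, 7.38 and 7.39 in the WT pools. The genotypes overlapped in all 3, with log2 fold changes of -0.07 for Klra3, 0.08 for Klrc3 and -0.03 for Klrg2 (SE 0.17 each), and the lowest limma adjusted p of the 3 was 0.814. They were -0.11, 0.10 and -0.01 against WT pool 1 alone.

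Of 30 NK and cytotoxic lymphocyte genes outside the set 6 were measured, and 0 passed in limma or had unadjusted p below 0.05. They averaged 7.37 and 7.33 in KO pools 2 and 4, against 7.31, 7.36 and 7.37 in WT pools 1, 9 and 11. The means of the KO pools lay within the range of the WT pools, but single genes varied more than the mean. Itga2, for the integrin chain CD49b of NK cells and other cell types, read 10.69 and 9.88 in the KO pools, against 10.86, 10.43 and 10.54 in the WT pools, with KO pool 4 below every other pool. Prf1, for perforin, the pore-forming protein of cytotoxic granules, read 7.41 and 7.62 in the KO pools, against 7.60, 7.61 and 7.60 in the WT pools. The log2 fold change was -0.33 for Itga2 and -0.08 for Prf1. It was positive in 3 of the 6, Sh2d1b1 (0.19), Tigit (0.14) and Fasl (0.09), against 49.8% of all probe sets. The defining markers Ncr1, Nkg7, Eomes and Gzma were not analysed here. Of 14 T cell genes 3 were measured, averaging 7.06 and 6.77 in the KO pools and 6.75 to 6.83 in the WT pools. None of the 7 B cell genes was analysed here.

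Of 16 adaptors and signalling genes of NK receptors 7 were measured, and 0 passed in limma or had unadjusted p below 0.05. Hcst, which encodes the NKG2D adaptor DAP10, read 7.0 and 7.12 in KO pools 2 and 4, against 6.85, 7.06 and 7.03 in WT pools 1, 9 and 11, with overlap. Fcer1g, an adaptor of Fc and NK receptors that mast cells and macrophages also use, read 10.34 and 10.34 in the KO pools, against 10.15, 10.04 and 10.05 in the WT pools. It did not overlap but did not pass (log2 fold change 0.26, SE 0.17, limma adjusted p = 0.490). The log2 fold change was positive in 5 of the 7, against 49.8% of all probe sets. It was negative in Fyn (-0.20), where both KO pools lay below all WT pools, and in Vav1 (-0.16). The 8 measured mast cell genes averaged 9.29 in each KO pool and 9.05 to 9.15 in the WT pools, and the 6 measured macrophage genes 9.37 and 9.01 in the KO pools and 9.28 to 9.34 in the WT pools. What these cells add to Fcer1g was not tested.

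Of 22 further ligand genes 9 were measured, and 0 passed in limma. At unadjusted p below 0.05, 2 were lower in KO, against 7.17% of all probe sets, and 0 higher, against 7.14%. Clec2d, which encodes the lectin-like ligand of Klrb1b, read 9.42 and 8.25 in KO pools 2 and 4, against 9.54, 9.74 and 9.63 in WT pools 1, 9 and 11 (log2 fold change -0.80, SE 0.24, limma adjusted p = 0.111). KO pool 4 lay far below every other pool, as it did for Klrb1a. Cdh1, for E-cadherin, a ligand of the receptor KLRG1, read 9.23 and 8.83 in the KO pools, against 9.59, 10.01 and 9.54 in the WT pools (log2 fold change -0.68, SE 0.19, limma adjusted p = 0.0946). E-cadherin is also an epithelial protein, and the keratinocyte genes above were highest in WT pool 9, as Cdh1 was. In WT pool 1, where those genes averaged 7.27, Cdh1 was near its level in WT pool 11, where they averaged 8.62. Against WT pool 1 alone the log2 fold change of Cdh1 was -0.56. The part of the keratinocyte genes in the Cdh1 difference was not tested. The median log2 fold change of the 9 genes was -0.14.

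The H2 genes differed little, and none of the 7 passed in limma. H2-Q4, a class I gene of the Q region, read 9.36 and 9.21 in KO pools 2 and 4, against 9.04, 8.58 and 8.87 in WT pools 1, 9 and 11. The groups did not overlap, and the difference was 1.37-fold (log2 fold change 0.45, SE 0.18, unadjusted p = 0.0194, limma adjusted p = 0.240). Against WT pool 1 alone it was 0.24. H2-Q2, of the same region, read 7.13 and 7.42 in the KO pools, against 7.01, 7.13 and 7.20 in the WT pools, with a shared value in KO pool 2 and WT pool 9 to 2 decimals.

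The H2-M genes encode nonclassical class I molecules, and those of the M1 and M10 families are known from the vomeronasal organ. H2-M1 read 5.62 and 5.64 in KO pools 2 and 4, against 5.38, 5.58 and 5.64 in WT pools 1, 9 and 11. H2-M10.2 read 7.0 and 7.15 in the KO pools, against 6.81, 7.0 and 7.0 in the WT pools. The KO pools of both stood at the upper end of the WT range or just past it. H2-M10.3 read 6.88 and 7.08 in the KO pools, against 7.10, 7.22 and 7.10 in the WT pools, and H2-M5 read 6.67 and 7.08 in the KO pools, against 6.76, 6.97 and 6.97 in the WT pools. The KO pools of H2-M10.3 lay below the WT pools by only 0.02 at the nearest, and those of H2-M5 enclosed the WT pools. The log2 fold changes of these 4 genes and H2-Q2 ran from -0.16 to 0.16, and from -0.12 to 0.26 against WT pool 1 alone, where that of H2-M5 turned positive (0.11 beside -0.03).

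H2-Ab1, which encodes the beta chain of the class II molecule, read 8.44 and 8.31 in KO pools 2 and 4, against 8.18, 8.13 and 8.24 in WT pools 1, 9 and 11. The groups did not overlap, with a log2 fold change of 0.19 (SE 0.17, limma adjusted p = 0.615) that was also 0.19 against WT pool 1 alone. Cd74, the invariant chain that guides class II molecules, read 8.71 and 8.31 in the KO pools, against 8.33, 8.30 and 8.01 in the WT pools, with overlap (log2 fold change 0.30, SE 0.18, limma adjusted p = 0.464, and 0.18 against WT pool 1 alone).

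The 4 left-out probe sets that several class I H2 genes share gave log2 fold changes of 0.17, 0.42, 0.34 and 0.36, with a median of 0.35. Against WT pool 1 alone they were 0.13, 0.23, 0.20 and 0.22 in the same order. Both KO pools lay above all WT pools in 3 of these 4, against 17.5% of all probe sets. None passed in limma, with adjusted p from 0.298 to 0.649. The brightest of them read 10.90 and 10.86 in KO pools 2 and 4, against 10.75, 10.65 and 10.73 in WT pools 1, 9 and 11. These values cannot be assigned to a single class I gene.

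In peptide loading, Tap1, a subunit of the TAP transporter, read 8.72 and 8.56 in KO pools 2 and 4, against 8.56, 8.29 and 8.46 in WT pools 1, 9 and 11. Tapbp, which encodes tapasin, read 9.85 and 9.87 in the KO pools, against 9.77, 9.56 and 9.65 in the WT pools. Both had a log2 fold change of 0.20 (SE 0.17), with limma adjusted p of 0.609 for Tap1 and 0.605 for Tapbp, and WT pool 1 was the highest WT pool in each. Against WT pool 1 alone the values were 0.08 and 0.09.

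Of 19 further genes of peptide processing and loading 5 were measured, and 0 passed in limma or had unadjusted p below 0.05. All 5 had positive log2 fold changes (0.07 to 0.32), against 49.8% of all probe sets. Their median was 0.30, and 0.18 against WT pool 1 alone. Calr, for the chaperone calreticulin, read 12.45 and 12.74 in KO pools 2 and 4, against 12.35, 12.29 and 12.19 in WT pools 1, 9 and 11. Pdia3, for the disulfide isomerase of the loading complex, read 13.12 and 13.14 in the KO pools, against 13.01, 12.76 and 12.94 in the WT pools. The groups did not overlap in either. Of 15 transcription factors of MHC genes 7 were measured, and 0 passed in limma. At unadjusted p below 0.05, 1 was lower in KO, against 7.17% of all probe sets. That was Irf2, an interferon regulatory factor, which read 10.54 and 8.55 in the KO pools, against 10.42, 10.39 and 10.08 in the WT pools. Its difference (log2 fold change -0.75, SE 0.33, limma adjusted p = 0.305) came from KO pool 4, since KO pool 2 was above all WT pools. Nlrc5, which drives class I genes, read 6.87 and 6.98 in the KO pools, against 6.87, 6.56 and 6.87 in the WT pools.

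**Figure D3:**
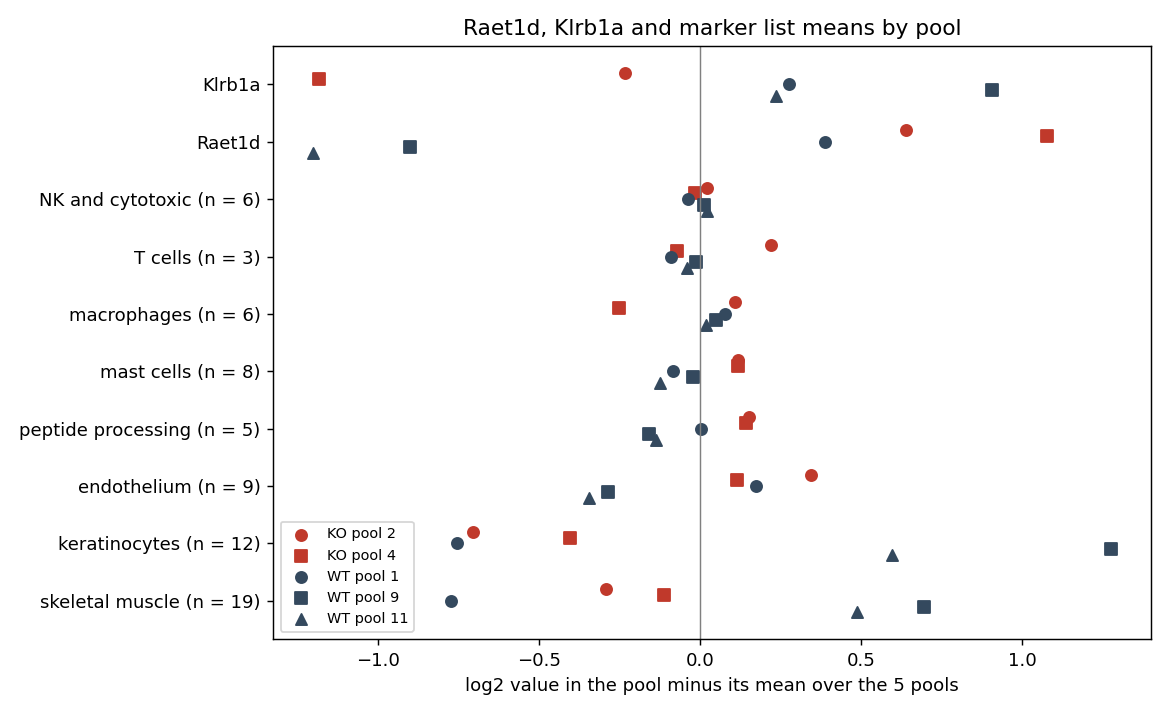
Log2 value of each pool minus the mean over the 5 pools for Klrb1a, Raet1d and the means of 8 marker lists, with n the number of measured genes of a list. The NK and cytotoxic list lies within 7.31 to 7.37 in all pools, while keratinocyte and skeletal muscle means are highest in WT pools 9 and 11, where Raet1d is lowest.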

How the data were processed

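RNA of the nerve pools was hybridised as biotin-labelled cDNA to Affymetrix whole-transcript arrays, per the labels' protocols. The deposited log2 values were made by the authors with RMA, per the submitters' processing notes, with no version or settings given in the sources used here. Array medians ran from 8.93 to 9.11. In every probe set the fourth-ranked value exceeded the lowest by at least 0.175, so genes with little spread are not in the table as used here. Gene names came from the annotation that GEO holds for the array platform, where 9411 had 1 symbol, 384 several and 566 were not listed. All 17 genes matched RefSeq GRCm38.p6 and 0 symbols were updated.

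Genotypes were compared with limma 3.58.1 in R 4.3.3 (lmFit and eBayes, 3 residual and 17.4 prior degrees of freedom), two-sided, with Benjamini-Hochberg adjustment over 10361 probe sets. The fit was tested on simulated data. An exact two-sided rank test of 2 against 3 pools cannot go below p = 0.2 and was not used. The number of arrays limits the precision. Promoter windows were aligned with Biopython 1.88. Alternatives were median centring, quantile normalization, a filter at the 50th percentile of the means, no moderation, a trend, a robust prior, each pool left out, and WT pools 9 and 11 left out or as a block.

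The genes and lists were chosen with earlier results of these data known. Among the 17 genes, full values were given first to those passing adjusted p below 0.05, then to those at unadjusted p below 0.05 with at least 1.5-fold. Those of each role with the largest change came next. The marker lists did not keep to this order, and skin and muscle genes are given only as list means. Of the marker lists, 3 are not described elsewhere, and limma called 0 of their genes. Dendritic cells had 2 of 8 genes measured (0 at unadjusted p below 0.05), with a median log2 fold change of 0.11, and 0.29 against WT pool 1 alone. Red blood cells had 2 of 9 (0 at unadjusted p), with -0.33, which turned to 0.22 against WT pool 1 alone. Nerve fibroblasts and perineurium had 7 of 10, with 0.14, and 0.04 against WT pool 1 alone. At unadjusted p below 0.05, 2 of these 7 were higher, against 7.14% of all probe sets, and 1 lower, against 7.17%.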

Additional observations from a re-analysis of the deposited data

How the results depend on the processing

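Raet1d and Klrb1a had log2 fold changes of 0.47 to 1.91 and of -1.66 to -0.70 in all alternatives that fitted them. In both genes the KO pools lay beyond all WT pools, so leaving out pools could not turn the sign. No moderation, the trend and the robust prior leave the log2 fold change unchanged. The kept direction is thus no test of these differences. Both stayed called with a trended prior (limma adjusted p = 0.0120 each) and without WT pool 11. The fit without WT pool 11 had infinite prior degrees of freedom, so the spread of each gene's own pools did not enter its p-values. In median centring, quantile normalization, no moderation, the robust prior, WT pool 1 alone and the block, 0 genes of the set were called in either direction. The filter on low values also gave 0 and 0 because it kept Tapbp alone of the 17. With each pool left out in turn the set had 0 to 1 genes called higher and 0 to 1 lower. Several of these fits called 0 or 1 probe sets of the whole table, as given below, so losing the call in them was not particular to the set. The cause was not tested. Over the whole table, 70 probe sets were called, against 1 after median centring, 1 after quantile normalization, 287 with the filter, 158 with the trend and 148 with the robust prior. It was 0 with no moderation (498 at unadjusted p below 0.05), 0 against WT pool 1 alone (127) and 0 with the block (286). Leaving out single pools gave 0 to 105, of which the fits lacking KO pool 2 (2309) or KO pool 4 (327) gave 0. The median log2 fold change of the 17 genes was 0.13, against 0.19 after median centring and 0.20 with the filter, and 0.06 to 0.16 with single pools left out. Near-zero differences changed sign in 5 genes, none called. H2-M5 was 0.03 after median centring, 0.11 against WT pool 1 alone and 0.11 with the block, and ran from -0.23 to 0.18 without single pools. Klrb1b was -0.03 against WT pool 1 alone and -0.03 with the block, and -0.03 to 0.30 without single pools. Klrg2 was 0.03 after median centring and 0.00017 after quantile normalization, and -0.17 to 0.10 without single pools. Klra3 ran from -0.26 to 0.12 and Klrc3 from -0.02 to 0.18. Of 205 single-gene values under the alternatives, 171 kept sign and side of the threshold, 20, all of Raet1d or Klrb1a, lost the call, and 14 changed sign. The block repeats the log2 fold change against WT pool 1 alone for every gene, and both are counted among the 205. No paired analysis was possible because the pool numbers of the genotypes share none.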
